A study of Arabidopsis thaliana with 12 samples.

Results

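Suberin synthesis in the thickened hypocotyl and root of Arabidopsis thaliana was followed through 10 genes, which were taken by locus from the 32833 loci counted. They were listed for their known part in the pathway, by locus and with no threshold on a measured value, although with earlier results of these data known. KCS2 (AT1G04220) elongates fatty acyl chains. CYP86A1 (AT5G58860) and CYP86B1 (AT5G23190) are fatty acid ω-hydroxylases. FAR1 (AT5G22500), FAR4 (AT3G44540) and FAR5 (AT3G44550) reduce fatty acyl-CoA to primary alcohols. GPAT5 (AT3G11430) joins acyl groups to glycerol, and ASFT (AT5G41040) joins ferulate to ω-hydroxy fatty acids. ABCG2 (AT2G37360) and ABCG6 (AT5G13580) encode membrane transporters of the ABC family. Of the 10 genes, 9 had enough counts to be tested and ABCG2 had none.

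Suberin is a polyester of fatty acids, glycerol and phenolics that is laid down between the cell wall and the plasma membrane and limits the passage of water and solutes. In a root or hypocotyl that thickens, the periderm replaces the outer tissues, and its outermost layers, the cork or phellem, are suberised. Chains are elongated, oxidised at their far end or reduced to alcohols, joined to glycerol or ferulate and exported to the wall, where they are polymerised.

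Poly-A RNA was counted in 4 genotypes with 3 biological replicates each, 12 libraries in all, from plants 3 weeks old. Each sample was the hypocotyl with the uppermost 5 mm of the root, so it held periderm together with xylem, phloem and cambium. In such bulk samples, a larger share of suberising cells and more transcript per cell cannot be told apart. Wild type was Col-0. The double mutant er erl2 carried er-105 and erl2-1, in the genes of 2 ERECTA-family receptor kinases. The triple mutant pxf carried pxy-3, pxl1-1 and pxl2-1, in the genes of the receptor kinase PXY and 2 relatives. The quintuple mutant pxf er erl2 carried all 5 alleles, and all of these are mutations of the whole plant. The lines were sequenced to find genes that differ between plants altered in radial growth.

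The stretch of 250 bases before the annotated start of a gene is shown for ASFT, which differed from wild type in all 3 mutants, for FAR5, which rose most in pxf, for FAR1, which moved unlike the others, and for GPAT5. The sequences come from the RefSeq assembly TAIR10.1 and are written 5′ to 3′ on the strand of the gene. Capitals mark ACCNAAC, an element bound by MYB factors, or ACGTG, the core of the abscisic acid response element, on either strand. The windows are chr5:16431054-16431303 for ASFT, chr3:16137326-16137575 for FAR5, chr5:7470078-7470327 for FAR1 and chr3:3595444-3595693 for GPAT5, all on the plus strand.
ASFT: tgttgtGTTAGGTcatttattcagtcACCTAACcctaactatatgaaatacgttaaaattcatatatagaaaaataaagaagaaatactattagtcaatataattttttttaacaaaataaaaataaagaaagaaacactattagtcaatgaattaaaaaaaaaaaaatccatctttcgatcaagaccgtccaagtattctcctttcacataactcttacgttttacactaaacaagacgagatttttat
FAR5: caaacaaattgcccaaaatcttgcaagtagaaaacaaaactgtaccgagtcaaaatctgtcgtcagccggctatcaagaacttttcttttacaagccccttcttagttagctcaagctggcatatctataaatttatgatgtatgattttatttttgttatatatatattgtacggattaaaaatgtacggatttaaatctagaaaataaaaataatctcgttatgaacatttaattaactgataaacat
FAR1: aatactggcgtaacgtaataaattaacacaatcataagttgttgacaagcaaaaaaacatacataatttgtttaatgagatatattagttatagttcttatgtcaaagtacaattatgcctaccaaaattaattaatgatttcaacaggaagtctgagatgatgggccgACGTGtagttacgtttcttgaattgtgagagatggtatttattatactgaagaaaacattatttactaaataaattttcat
GPAT5: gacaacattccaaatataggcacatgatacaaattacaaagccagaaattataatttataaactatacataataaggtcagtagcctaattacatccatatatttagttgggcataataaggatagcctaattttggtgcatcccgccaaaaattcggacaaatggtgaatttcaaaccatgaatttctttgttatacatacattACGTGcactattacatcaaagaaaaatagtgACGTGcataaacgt
ASFT held ACCNAAC in each orientation, 244 and 224 bases before the start, counted from the first base of the match. GPAT5 held ACGTG at 45 and at 14 bases, FAR1 held it at 81 bases, and FAR5 held neither element. Among all 10 genes, 2 windows (ASFT and CYP86B1) held ACCNAAC and 3 (GPAT5, FAR1 and FAR4) held ACGTG. Of 27443 windows of the same length before protein-coding genes, 14.5% held ACCNAAC and 22.9% held ACGTG.

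Library totals were 10507590 to 14716123 counts, and 19236 loci with 99.9% of all counts were tested. Levels are given as CPM (counts scaled to a common library size), scaled by the trimmed mean of M-values (TMM). Of the 5 mutated genes, PXY and ER were lower in the lines that carry their alleles. PXY stood at 249 CPM in wild type, 22.9 in pxf and 77.3 in the quintuple mutant. ER stood at 38.3 CPM in wild type, and at 9.57 and 9.33 in the double and quintuple mutants. The other 3 stood under 1 CPM on average in every genotype. PXL2 was lower in the quintuple mutant (adjusted p = 0.0283, edgeR) and not past the test in pxf (adjusted p = 0.184). ERL2 overlapped with wild type in er erl2, and PXL1 stood above wild type in pxf (0.90 against 0.21 CPM). ERL2 and PXL1 were untested for low counts. The exons of PXL1 and PXL2 shared 88.0% and 78.7% of their bases with other annotated loci, so the levels of both are uncertain. Library pxf replicate 2 was the lowest of its group, and library pxf er erl2 replicate 3 the lowest of its group, for 9 of 9 tested suberin genes, by a median of 0.31 and 0.33 on the log2 scale below the group mean. The results that follow rest on groups that hold these libraries, and values without them are given where they move a call.

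Suberin genes were raised in both lines that carry the pxf mutations. Of the 9 tested genes, 8 were called higher in pxf than in wild type, at 1.87-fold to 3.07-fold, and 0 lower, where 21.0% of all tested loci were called, 13.0% higher and 7.97% lower. Against wild type, the quintuple mutant had 9 of 9 called higher, at 1.35-fold to 2.55-fold, where 36.3% of all loci were called, 19.9% higher and 16.4% lower. The double mutant er erl2 had 1 of 9 called higher (ASFT) and 0 lower, where 18.8% of all loci were called, 10.3% higher and 8.44% lower. This 1 of 9 was near the background. A gene was called where its Benjamini-Hochberg adjusted p over all 19236 loci, from edgeR's quasi-likelihood test, was under 0.05. The median log2 difference of the 9 genes was 1.09 for pxf, 0.99 for the quintuple mutant and 0.38 for er erl2, beside 0.01, -0.00 and 0.02 over all tested loci. All 3 comparisons use the same wild-type libraries and are therefore not independent of each other.

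**Figure D1:**
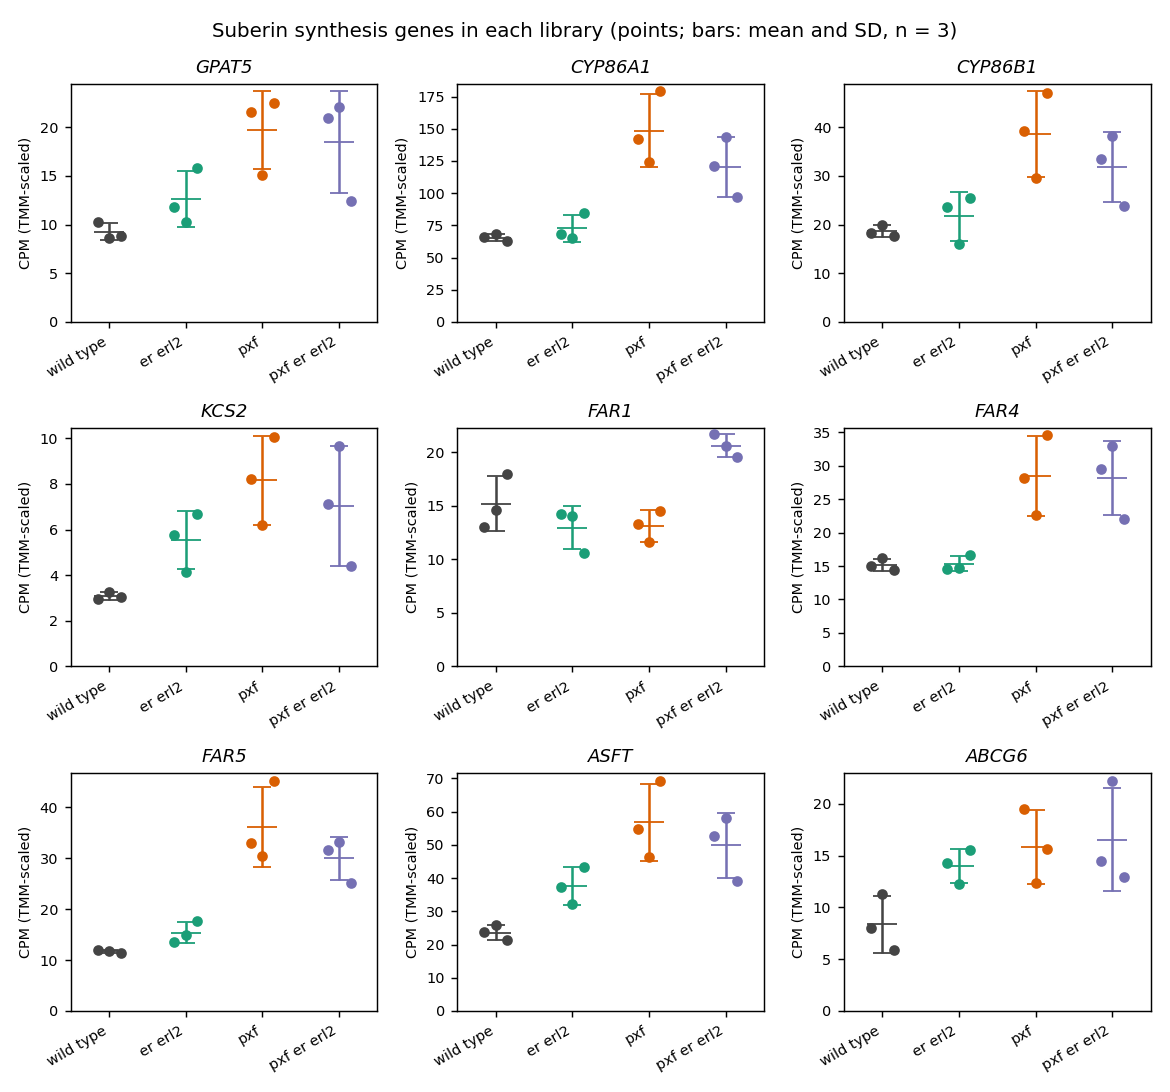
TMM-scaled CPM (y axis, linear from 0) of the 9 counted suberin genes in each of the 12 libraries (points), by genotype on the x axis, with the mean and SD of 3 replicates as bars. For 8 of the genes the pxf points lie above all wild-type points, while FAR1 was at 11.6 to 14.5 CPM in pxf and 13.0 to 18.0 CPM in wild type and was highest in pxf er erl2, at 19.5 to 21.7 CPM.

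The elongase KCS2 makes very-long-chain acyl precursors. Its levels were 2.94, 3.28 and 3.06 CPM in the wild-type libraries, from 31 to 36 counts each. They were 5.78, 4.15 and 6.67 CPM in er erl2, 8.19, 6.20 and 10.06 CPM in pxf, and 7.10, 9.65 and 4.40 CPM in the quintuple mutant. All mutant libraries lay above all wild-type libraries. KCS2 rose by 1.39 on the log2 scale in pxf (SE 0.29, adjusted p = 0.00491, edgeR) and by 1.19 in the quintuple mutant (SE 0.29, adjusted p = 0.00659). In er erl2 its difference was 0.83 (SE 0.30), which did not pass the test (adjusted p = 0.0698). The exons of KCS2 shared 63.6% of their bases with other annotated loci, mostly the antisense non-coding locus AT1G04247, which had 8 to 32 counts per library. How the authors' counting treated such bases was not given in the sources used here, so KCS2 levels are uncertain.

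The hydroxylases oxidise the far end of the chain, CYP86A1 that of long chains and CYP86B1 that of very long chains. CYP86A1 stood at 66.2, 67.9 and 62.5 CPM in wild type and at 68.2, 65.1 and 84.9 CPM in er erl2. It stood at 142, 124 and 179 CPM in pxf and at 121, 144 and 96.7 CPM in the quintuple mutant. The lowest library of either pxf line was thus above the highest of the other 2 genotypes. CYP86A1 rose by 1.18 (log2, SE 0.16, adjusted p = 0.000742, edgeR) in pxf and by 0.88 (SE 0.16, adjusted p = 0.00195) in pxf er erl2 against wild type, and its difference in er erl2 was 0.15 (SE 0.17, adjusted p = 0.576).

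CYP86B1 was measured at 18.2, 19.97 and 17.7 CPM in wild type, 23.5, 16.0 and 25.5 CPM in er erl2, 39.3, 29.5 and 47.0 CPM in pxf, and 33.5, 38.1 and 23.8 CPM in the quintuple mutant. Libraries of er erl2 fell on both sides of wild type, and those of pxf and the quintuple mutant were all above it. The rise was 1.05 in pxf (log2, SE 0.22, adjusted p = 0.00733, edgeR) and 0.77 in the quintuple mutant (SE 0.22, adjusted p = 0.0189). The second of these calls did not hold when replicate 1 or 3 of wild type, or 1 or 2 of the quintuple mutant, was left out (adjusted p 0.0558 to 0.0757). The ratio of CYP86A1 to CYP86B1 counts was 3.40 to 3.64 in wild type. It was 2.90 to 4.06 in the double, 3.63 to 4.20 in the triple and 3.61 to 4.05 in the quintuple mutant, and these ranges overlapped with one another and with wild type.

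The 3 reductases make the primary alcohols of suberin, and they did not move alike. FAR5 was 12.04, 11.9 and 11.5 CPM in wild type, 13.6, 14.9 and 17.6 CPM in er erl2, 33.0, 30.4 and 45.2 CPM in pxf, and 31.7, 33.2 and 25.1 CPM in the quintuple mutant. Wild-type libraries were the lowest, er erl2 libraries next, and the pxf lines highest, with no overlap between these 3 sets. FAR5 had the largest difference of the 9 genes in pxf, 1.62 (log2, SE 0.16, adjusted p = 4.56e-05, edgeR), and also in the quintuple mutant, 1.35 (SE 0.16, adjusted p = 4.83e-05). In er erl2 its difference of 0.38 (SE 0.17) did not pass the test (adjusted p = 0.133).

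FAR4 stood at 15.0, 16.1 and 14.4 CPM in wild type and 14.6, 14.7 and 16.6 CPM in er erl2, where the libraries overlapped and the difference was 0.01 (log2, 95% interval -0.36 to 0.38). It stood at 28.1, 22.6 and 34.6 CPM in pxf and 29.5, 32.9 and 22.1 CPM in the quintuple mutant. These were all above the other 2 genotypes. FAR4 rose by 0.90 in pxf (SE 0.16, adjusted p = 0.00251, edgeR) and by 0.89 in the quintuple mutant (SE 0.17, adjusted p = 0.00124).

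FAR4 and FAR5 carry consecutive locus codes on chromosome 3, and the ratio of FAR5 to FAR4 counts changed with genotype. It was 0.73 to 0.80 in the wild-type libraries, 0.93 to 1.06 in those of the double mutant, 1.18 to 1.35 in the triple mutant and 1.01 to 1.14 in the quintuple mutant. FAR5 had fewer counts than FAR4 in 3 of 3 wild-type libraries and more in 3 of 3 libraries of each pxf line. Their coding sequences are 72.6% identical, with a longest shared run of 17 bases. Around both genes, many loci differed between er erl2 and wild type: of the 40 tested loci nearest to FAR4, 23 were called and 3 had changed at least 8-fold, and for FAR5 the numbers were 24 and 3. Over all tested loci, 18.8% were called and 1.09% had changed at least 8-fold in that comparison. The loci nearest to FAR4 and to FAR5 are largely the same, so their counts are not separate results. The part of this chromosome stretch in the values of FAR4 and FAR5 was not tested.

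FAR1 did not follow the other genes. Its levels were 13.0, 14.6 and 18.0 CPM in wild type, 14.2, 14.1 and 10.6 CPM in er erl2, and 13.3, 11.6 and 14.5 CPM in pxf, and these 3 genotypes overlapped. In the quintuple mutant it stood at 21.7, 20.6 and 19.5 CPM, above all other libraries. FAR1 differed from wild type by -0.23 (log2, SE 0.14, adjusted p = 0.296, edgeR) in er erl2 and by -0.22 (SE 0.14, adjusted p = 0.309) in pxf, neither of which passed the test. In the quintuple mutant it was higher than in wild type by 0.44 (SE 0.14, adjusted p = 0.0269), higher than in pxf by 0.65 (SE 0.14, adjusted p = 0.00994) and higher than in er erl2 by 0.67 (SE 0.14, adjusted p = 0.00281). The call against wild type did not hold when replicate 1 or 2 of either group was left out (adjusted p 0.0648 to 0.107).

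GPAT5 and ASFT join the acyl chains to glycerol and to ferulate. GPAT5 was 10.2, 8.66 and 8.83 CPM in wild type, 11.8, 10.2 and 15.8 CPM in er erl2, 21.5, 15.1 and 22.4 CPM in pxf, and 20.9, 22.0 and 12.4 CPM in the quintuple mutant. All libraries of the pxf lines were above wild type, and those of er erl2 were above it by a narrow margin. GPAT5 rose by 1.09 in pxf (log2, SE 0.24, adjusted p = 0.00788, edgeR) and by 1.00 in the quintuple mutant (SE 0.24, adjusted p = 0.0067), while its difference of 0.45 in er erl2 (SE 0.25) did not pass the test (adjusted p = 0.233).

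ASFT was 23.7, 25.9 and 21.2 CPM in wild type, 37.4, 32.1 and 43.4 CPM in er erl2, 54.7, 46.3 and 69.4 CPM in pxf, and 52.6, 58.0 and 39.1 CPM in the quintuple mutant. Wild type lay below every mutant library, and er erl2 lay below pxf. ASFT rose by 0.67 in er erl2 (log2, SE 0.18, adjusted p = 0.0275, edgeR), by 1.27 in pxf (SE 0.18, adjusted p = 0.000802) and by 1.08 in the quintuple mutant (SE 0.18, adjusted p = 0.000956). The call in er erl2 did not hold when replicate 1 or 3 of either group was left out (adjusted p 0.0657 to 0.114).

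ABCG6 is a transporter needed, with its close relatives, for export of suberin precursors. It was counted at 7.96, 11.3 and 5.86 CPM in wild type, 14.3, 12.3 and 15.5 CPM in er erl2, 19.5, 12.3 and 15.6 CPM in pxf, and 14.5, 22.2 and 12.9 CPM in the quintuple mutant. All mutant libraries were above wild type, although the wild-type libraries themselves were spread widely. ABCG6 was higher by 0.92 in pxf (log2, SE 0.27, adjusted p = 0.0317, edgeR) and by 0.99 in the quintuple mutant (SE 0.27, adjusted p = 0.0136). Its difference of 0.75 in er erl2 (SE 0.27) did not pass the test (adjusted p = 0.0778). The call in pxf ended when replicate 1 or 3 of either group was left out (adjusted p 0.0769 to 0.111). The call in the quintuple mutant ended when replicate 3 of wild type (adjusted p = 0.0501) or replicate 2 of the quintuple mutant (adjusted p = 0.0546) was left out.

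ABCG2, a related transporter of suberin precursors, had 0 counts in each of the 12 libraries, which allows a level of up to 0.207 to 0.284 CPM per library by counting error alone. Of its 2479 exon bases, 2362 also belong to the antisense non-coding locus AT2G37362 in TAIR10.1, which leaves 117 bases of its own. AT2G37362 had 26 counts over all libraries. Of 539 protein-coding loci with at least 90% of their exon bases shared, 89.6% had no count in any library, against 14.4% of 19986 loci with no shared base. The part of this overlap in the counts of ABCG2 was not tested.

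**Figure D2:**
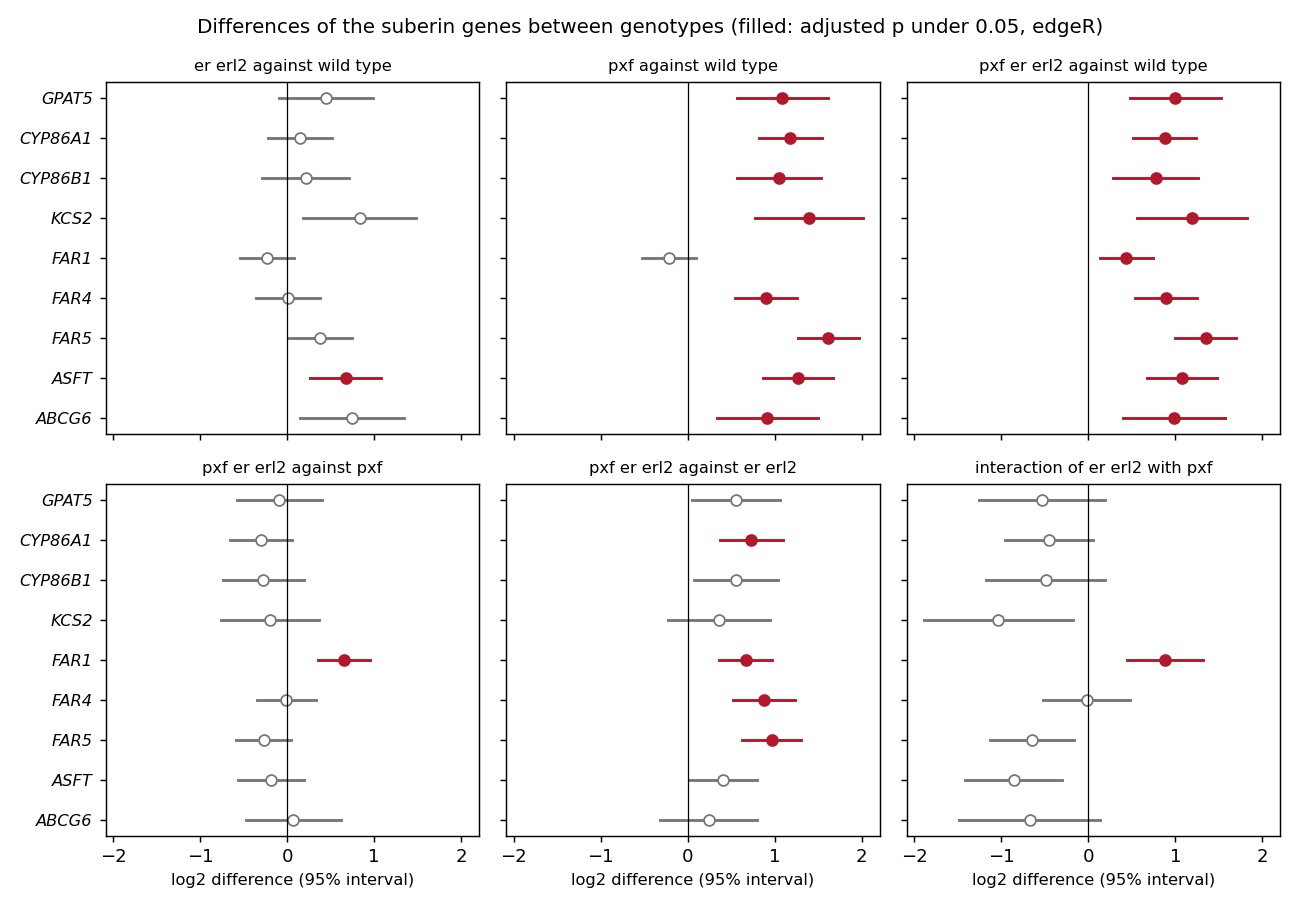
Log2 differences (x axis) of the 9 tested suberin genes in 5 pairwise comparisons and the interaction, with 95% intervals and filled points for an adjusted p under 0.05 in edgeR. The pxf and pxf er erl2 panels against wild type hold 8 and 9 filled points, and FAR1 is the gene filled in the comparison of pxf er erl2 with pxf and in the interaction.

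The quintuple mutant was compared with each parent line to see what the second set of mutations added. In pxf er erl2 against pxf, 1 of 9 was called higher (FAR1) and 0 lower, with a median of -0.19. Over all loci 10.5% were called, 5.07% higher and 5.41% lower, so the 1 of 9 was near the background. The intervals of the other 8 genes were wide for a difference of this size: for FAR5 the difference was -0.27 (log2, 95% interval -0.59 to 0.05), for CYP86A1 -0.30 (-0.66 to 0.05), and for FAR4 -0.01 (-0.35 to 0.33). In pxf er erl2 against er erl2, 4 of 9 were called higher and 0 lower, where 34.3% of loci were called, 18.0% higher and 16.2% lower. The 4 were FAR5, by 0.97 (SE 0.16, adjusted p = 0.000464, edgeR), FAR4, by 0.88 (SE 0.16, adjusted p = 0.00131), CYP86A1, by 0.73 (SE 0.16, adjusted p = 0.00566), and FAR1. Without pxf er erl2 replicate 3, 7 of 9 were called. Loci around the tested genes also differed between pxf er erl2 and er erl2. Of the 40 tested loci nearest to each of FAR4, FAR5 and FAR1, 24, 25 and 19 were called. Of these, 4, 4 and 3 had changed at least 8-fold, and the stretches of FAR4 and FAR5 are largely the same loci. Around the other tested genes, 10 to 19 were called, with 19 around KCS2, and 0 or 1 had changed at least 8-fold. The number called thus did not set FAR1 apart. Over all tested loci, 34.3% were called and 1.24% had changed at least 8-fold in that comparison. The part of these stretches in the values of the genes was not tested.

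The interaction compares the effect of er erl2 in the pxf background with that in the wild-type background, and a value of 0 means that the log2 effects add. Of the 9 genes, 1 was called (FAR1, positive), where 9.45% of loci were called, 4.65% positive and 4.80% negative. As a count, 1 of 9 was near the background. FAR1 stood at 0.88 (log2, SE 0.20, 95% interval 0.45 to 1.32, adjusted p = 0.0163, edgeR). The other 8 genes did not pass the test. Their estimates were below 0, although that of FAR4 (-0.02) turned above 0 when any of 4 libraries was left out. They included ASFT at -0.86 (SE 0.25, adjusted p = 0.058), KCS2 at -1.03 (SE 0.40, adjusted p = 0.122) and FAR5 at -0.65 (SE 0.22, adjusted p = 0.0883). The median of the 9 was -0.53 against -0.03 over all loci. Without pxf replicate 2 or without pxf er erl2 replicate 2, 3 of the 9 were called, FAR1 positive and ASFT negative in both cases, with FAR5 negative in the first and KCS2 negative in the second.

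Levels of different genes can be compared only per length, so CPM were divided by exon length in kilobases. In wild type the order ran from CYP86A1 at 35.2 ± 1.49 CPM per kb (SD, n = 3) through ASFT at 13.0 ± 1.28, CYP86B1 at 8.01 ± 0.51, FAR1 at 6.70 ± 1.13, FAR4 at 5.17 ± 0.30, GPAT5 at 4.62 ± 0.43, FAR5 at 3.97 ± 0.10 and ABCG6 at 3.34 ± 1.095 to KCS2 at 1.51 ± 0.09. The ranges of CYP86B1 and FAR1, of FAR4 and GPAT5, and of FAR5 and ABCG6 overlapped, so the order within these pairs is not settled by 3 libraries. CYP86A1, ASFT and CYP86B1 took the first 3 places and KCS2 the last in all 4 genotypes. Over the exon bases that no other locus shares, KCS2 would stand at 4.15 CPM per kb in wild type, at rank 7 and not 9.

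FAR5 moved from place 7 in wild type and 8 in er erl2 to place 4 in both pxf lines, at 12.2 ± 2.65 and 10.09 ± 1.44 CPM per kb. FAR1 went from place 4 in wild type to 8 in pxf, although its own difference in pxf did not pass the test. The ranges of each pair of neighbours overlapped from CYP86B1 down to FAR5 in er erl2, to FAR1 in pxf and to ABCG6 in the quintuple mutant. The order of such neighbours is not settled by 3 libraries. CYP86A1 made up 38.4% ± 0.65 (SD, n = 3) of the summed suberin CPM in wild type, 35.0% ± 1.25 in er erl2, 40.7% ± 1.03 in pxf and 37.3% ± 0.78 in the quintuple mutant. The share of FAR1 was 8.94% ± 1.83 in wild type and 3.63% ± 0.29 in pxf.

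**Figure D3:**
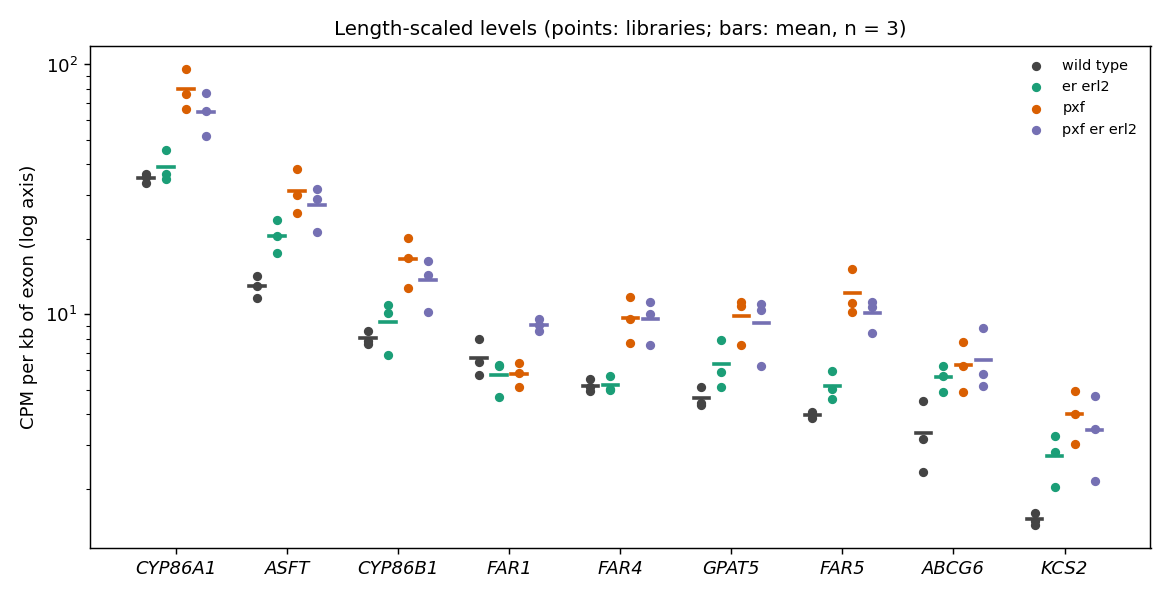
Levels of the 9 counted suberin genes in CPM per kilobase of exon (y axis, log scale), ordered by the wild-type mean, with a point for each library and a bar for the mean of 3. CYP86A1 stands above all other genes in each genotype, and FAR5 passes FAR4 and GPAT5 on average in both pxf lines.

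Across the 12 libraries the genes varied together, apart from FAR1. Pearson's r of log2 CPM was 0.68 to 0.98 over the 28 pairs without FAR1, with a median of 0.92, and 0.04 to 0.38 over the 8 pairs with FAR1. These values describe 12 libraries of 4 genotypes that share depth and tissue composition, and they carry no test. Summed CPM of the suberin genes were 163 to 179.7 in wild type, 184 to 237 in the double, 298 to 438 in the triple and 256 to 380.2 in the quintuple mutant. The er erl2 libraries lay between wild type and the pxf lines with no overlap on either side.

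The genes outside the 10 whose log2 CPM followed the mean standardised pattern of the 9 most closely were named by Pearson's r over the 12 libraries, among loci of at least 1 CPM on average. They were AT1G74460 and AT2G23540, both annotated in RefSeq as GDSL-like lipases (r = 0.981 each), AT4G30690, a translation initiation factor protein (r = 0.979), ROC4, a rotamase (r = 0.977), and AT1G68850, a peroxidase superfamily protein (r = 0.976). AT1G74460 stood at 38.8 CPM on average in wild type, 49.6 in er erl2, 81.4 in pxf and 75.96 in the quintuple mutant. AT1G68850 stood at 13.9, 18.9, 32.2 and 33.5 CPM in the same order. These levels follow from how the 5 loci were chosen and carry no test.

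The other listed genes of suberin synthesis and chain elongation were 14, all tested. Of them, 3 were higher and 0 lower in er erl2, 9 higher and 0 lower in pxf, and 10 higher and 0 lower in the quintuple mutant, each against wild type, where 10.3%, 13.0% and 19.9% of all loci were called higher. Their median differences were 0.28, 0.71 and 0.83 on the log2 scale. In the quintuple mutant, 1 was higher than in pxf (KCS20) and 5 were higher than in er erl2, where 5.07% and 18.0% of all loci were called higher. The 1 of 14 was thus near the background.

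KCS20, the elongase closest to KCS2 in this list, had another pattern. It stood at 7.58, 7.94 and 8.07 CPM in wild type, 22.4, 23.0 and 23.9 CPM in er erl2, 17.8, 16.3 and 17.7 CPM in pxf, and 27.2, 26.8 and 25.9 CPM in the quintuple mutant. The 4 genotypes did not overlap, and er erl2 stood above pxf. KCS20 rose by 1.55 in er erl2 (log2, SE 0.08, adjusted p = 4.80e-08, edgeR), by 1.13 in pxf (SE 0.08, adjusted p = 1.08e-05) and by 1.76 in the quintuple mutant (SE 0.08, adjusted p = 4.31e-08), with an interaction of -0.93 (adjusted p = 0.000213). The coding sequences of KCS2 and KCS20 are 80.4% identical, with a longest shared run of 53 bases, so reads of that stretch could be split between them.

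Among the transporters, ABCG1 went from 7.72 CPM in wild type to 19.5 in pxf (1.34, SE 0.17, adjusted p = 0.000215, edgeR) and 19.5 in the quintuple mutant (1.34, SE 0.17, adjusted p = 7.72e-05), and was at 9.24 in er erl2 (0.26, adjusted p = 0.346). LACS2, an acyl-CoA synthetase, went from 9.50 CPM to 19.7 in er erl2 (1.05, SE 0.20, adjusted p = 0.00301), 22.6 in pxf (1.25, SE 0.19, adjusted p = 0.000937) and 25.1 in the quintuple mutant (1.41, SE 0.19, adjusted p = 0.000168). GPAT7, the closest listed relative of GPAT5, went from 2.29 CPM to 4.20 in er erl2 (0.87, SE 0.23, adjusted p = 0.0195). AT5G37690, another lipase of the GDSL type, went from 50.1 CPM to 115.5 in pxf (1.204, SE 0.21, adjusted p = 0.00324). FACT, which makes caffeoyl esters of fatty alcohols, was at 37.0 CPM in wild type, 27.4 in er erl2 and 48.9 in the quintuple mutant, higher in the last than in er erl2 by 0.84 (SE 0.14, adjusted p = 0.000833).

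**Figure D4:**
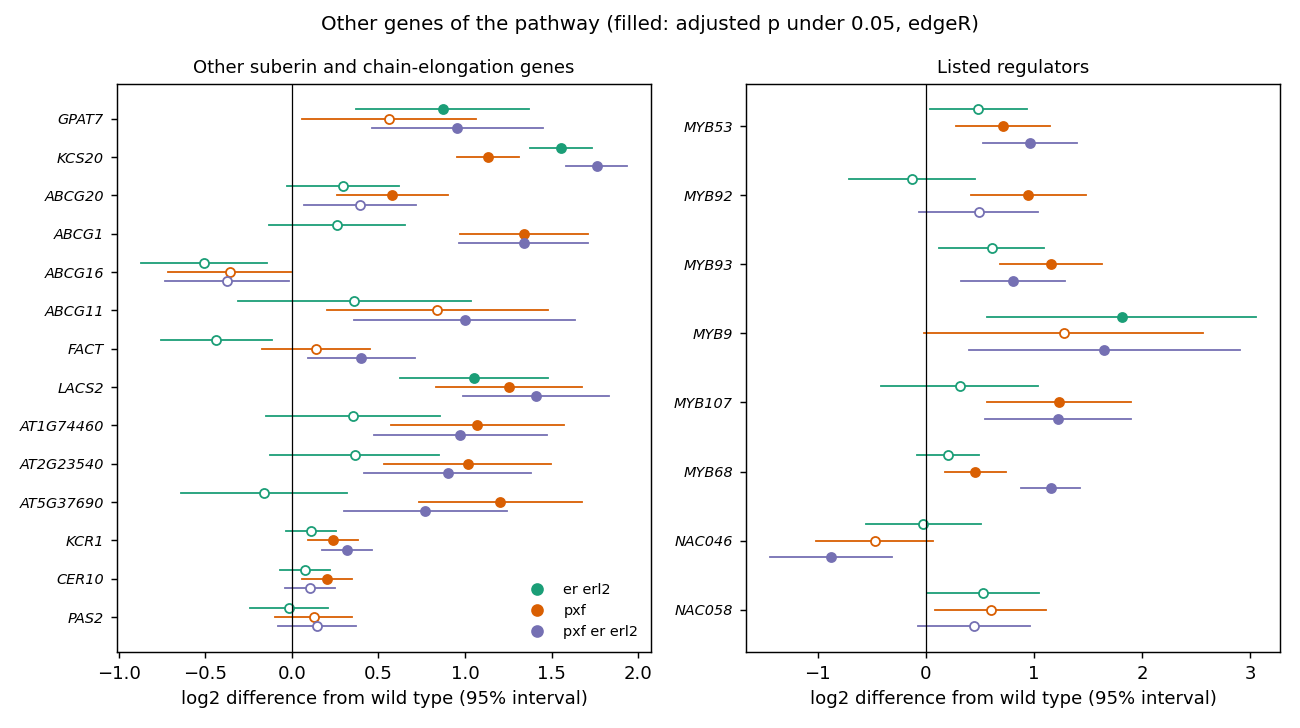
Log2 differences from wild type (x axis, 95% intervals) in er erl2, pxf and pxf er erl2 for the 14 other suberin and elongation genes on the left and 8 tested regulators on the right, with filled points for an adjusted p under 0.05 in edgeR. In the left panel KCS20 has the largest difference in the double and the quintuple mutant, while ABCG1 and the 3 lipases are filled in the pxf lines.

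Of 10 listed transcription factors linked to suberin, 8 were tested. In er erl2 1 was higher and 0 lower than in wild type, in pxf 5 were higher and 0 lower, and in the quintuple mutant 5 were higher and 1 lower. Over all loci, 10.3%, 13.0% and 19.9% were called higher, so the 1 of 8 in er erl2 was near the background. MYB93 stood at 7.39, 5.56 and 6.71 CPM in wild type, 9.24, 8.95 and 11.8 CPM in er erl2, 15.7, 10.7 and 17.5 CPM in pxf, and 13.5, 12.4 and 8.46 CPM in the quintuple mutant. All mutant libraries were above wild type. MYB93 rose by 1.16 in pxf (log2, SE 0.22, adjusted p = 0.00287, edgeR) and by 0.81 in the quintuple mutant (SE 0.22, adjusted p = 0.0128). MYB107 went from 1.24 ± 0.29 to 2.91 ± 0.91 CPM between wild type and pxf (SD, n = 3), a rise of 1.23 (SE 0.31, adjusted p = 0.014), and MYB92 rose by 0.95 in pxf (SE 0.25, adjusted p = 0.0165) but not past the test in the quintuple mutant (0.49, adjusted p = 0.153).

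MYB53 rose by 0.72 in pxf (log2, SE 0.20, adjusted p = 0.0247, edgeR) and by 0.96 in the quintuple mutant (SE 0.20, adjusted p = 0.00252). MYB68 was at 11.96 ± 1.79 CPM in wild type, 13.8 ± 1.86 in er erl2, 16.4 ± 1.51 in pxf and 26.6 ± 1.57 in the quintuple mutant (SD, n = 3), and was the regulator called between the quintuple mutant and pxf (0.69, SE 0.12, adjusted p = 0.00304). Like FAR1, it was highest in the quintuple mutant, but its interaction did not pass the test. MYB9 was called higher in er erl2 (1.81, SE 0.58, adjusted p = 0.0444) from 12 counts over the 3 wild-type libraries and 46 over those of er erl2. NAC046 was lower in the quintuple mutant (-0.88, adjusted p = 0.0189, edgeR), and NAC058 was at 10.9 CPM in wild type and 14.7 to 16.5 in the mutants with no call. MYB41 had 7 to 20 counts per genotype and MYB39 had 1 to 8, and neither was tested.

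Of 16 listed relatives of the suberin enzymes from the same families, 9 were tested. In er erl2 3 were higher, in pxf 5 and in the quintuple mutant 5 than in wild type, and 0 were lower in any of these, where 18.8%, 21.0% and 36.3% of all loci were called in either direction. Several are known for cutin, the polyester of shoot surfaces. GPAT4 went from 7.31 CPM to 14.5 in er erl2 (log2 0.98, SE 0.20, adjusted p = 0.00515, edgeR), 18.1 in pxf (1.30, SE 0.20, adjusted p = 0.000736) and 19.9 in the quintuple mutant (1.44, SE 0.20, adjusted p = 0.000141). GPAT6 went from 14.9 CPM to 31.8 in pxf (1.09, SE 0.19, adjusted p = 0.00185) and CYP86A2 from 8.71 CPM to 15.6 (0.84, SE 0.15, adjusted p = 0.00218). CYP86A2 was also higher in er erl2 (0.51, SE 0.15, adjusted p = 0.035) and the quintuple mutant (0.54, SE 0.15, adjusted p = 0.015). Among the other reductases, FAR6 was counted at 3.23 to 5.999 CPM on average per genotype, and FAR3, FAR7 and FAR8 had at most 1 count in any library. The coding sequence of FAR8 is 87.5% identical to that of FAR5.

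Markers of other tissues moved with genotype too. The 4 listed green-tissue genes (RBCS1A, LHCB1.1, LHCB1.2 and LHCB2.1) were called higher in all 3 mutants than in wild type, 4 of 4 each. Of all loci, 10.3%, 13.0% and 19.9% were called higher in er erl2, pxf and the quintuple mutant. Summed CPM of the 4 were 244 to 364 in wild type and 786 to 827, 1077 to 1508 and 1192 to 1977 in the double, triple and quintuple mutants. Their lowest and highest pxf libraries were replicates 2 and 3, as for the suberin genes, and their lowest pxf er erl2 library was replicate 3, also as for the suberin genes. In er erl2 the orders differed, as replicate 2 had the highest green-tissue sum (827 CPM) and the lowest suberin sum (184 CPM). In wild type, replicate 3 was lowest for both, and the highest was replicate 1 for green tissue and replicate 2 for suberin. Between wild type and er erl2 neither the green-tissue sums nor the suberin sums overlapped. Of 13 cuticle genes, 4 of which also stand among the relatives above, 10 were tested, and 4, 3 and 5 were higher in er erl2, pxf and the quintuple mutant and 0 lower, beside 10.3%, 13.0% and 19.9% of all loci called higher. Their summed CPM were 38.1 to 43.2 in wild type and 48.8 to 64.2, 73.8 to 98.4 and 70.5 to 82.7 in the double, triple and quintuple mutants, and SHN1 had 1 count in all. The part of green or cuticle-bearing tissue in the suberin differences was not tested.

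The endodermis is the other suberised layer of the root. Of 10 listed genes of the Casparian strip and endodermis, 5 were tested, and CASP1 to CASP5, which define the strip, had 0 to 8 counts in any library. Against wild type, 0 of the 5 were called in er erl2 (edgeR; 0 at an unadjusted p under 0.05), 2 were higher and 1 lower in pxf, and 3 were higher and 1 lower in the quintuple mutant, where 18.8%, 21.0% and 36.3% of all loci were called. The summed CPM of the list were 182 to 343 in wild type and 179 to 494, 23.9 to 29.2 and 39.1 to 49.6 in the double, triple and quintuple mutants. Nearly all of the wild-type sum was PER64, a peroxidase. PER64 went from 258.8 CPM in wild type to 6.28 in pxf (log2 -5.35, SE 0.57, adjusted p = 0.000351, edgeR) and 19.998 in the quintuple mutant (-3.70, SE 0.51, adjusted p = 0.000572). MYB36, a regulator of endodermal differentiation, went the other way, from 4.86 CPM to 11.8 in pxf (1.27, SE 0.17, adjusted p = 0.000316) and 13.8 in the quintuple mutant (1.503, SE 0.17, adjusted p = 2.84e-05). AT1G61590 also rose, from 3.496 CPM to 5.66 in pxf (adjusted p = 0.0223) and 7.73 in the quintuple mutant (adjusted p = 0.000512), and UCC1 rose in the quintuple mutant, from 0.45 to 1.42 CPM (adjusted p = 0.00699). The part of the endodermis in the suberin differences was not tested.

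All 6 listed genes of the cork cambium and periderm were counted and tested. Against wild type, 4 were higher in er erl2, 4 in pxf and 2 in the quintuple mutant, and 0 were lower. Over all loci 18.8%, 21.0% and 36.3% were called, so the 2 of 6 in the quintuple mutant were near the background. ANT, a transcription factor that promotes cell proliferation, stood at 41.1 ± 2.40 CPM in wild type (SD, n = 3). It was at 68.9 ± 15.3 in er erl2 (log2 0.74, SE 0.14, adjusted p = 0.00334, edgeR) and 88.6 ± 10.8 in pxf (1.11, SE 0.14, adjusted p = 0.000289). In the quintuple mutant ANT was at 85.8 ± 6.20 (1.06, SE 0.14, adjusted p = 0.000138). The peroxidase AT2G18150 went from 140.4 ± 11.2 CPM to 171 ± 1.68 in er erl2 (0.29, SE 0.07, adjusted p = 0.0184), 210.3 ± 15.3 in pxf (0.58, SE 0.07, adjusted p = 0.000222) and 258.7 ± 18.0 in the quintuple mutant (0.88, SE 0.07, adjusted p = 2.89e-06). AT4G36430 and MYB84 were higher in pxf (0.32 and 0.64, adjusted p = 0.0223 and 0.0199, edgeR). KNAT1 and WOX4 were higher in er erl2 (0.23 and 0.32) but not in the pxf lines. KNAT1 stood below wild type in every pxf and quintuple library, without a call (-0.18 and -0.11, adjusted p = 0.0505 and 0.176). WOX4 differed by 0.05 in pxf and -0.07 in the quintuple mutant. Both were lower in the quintuple mutant than in er erl2 (-0.34 and -0.39, adjusted p = 0.0007 and 0.00064). Summed CPM of the 6 were 613 to 645 in wild type and 741 to 818 in pxf, a smaller proportional rise than that of the suberin sum.

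**Figure D5:**
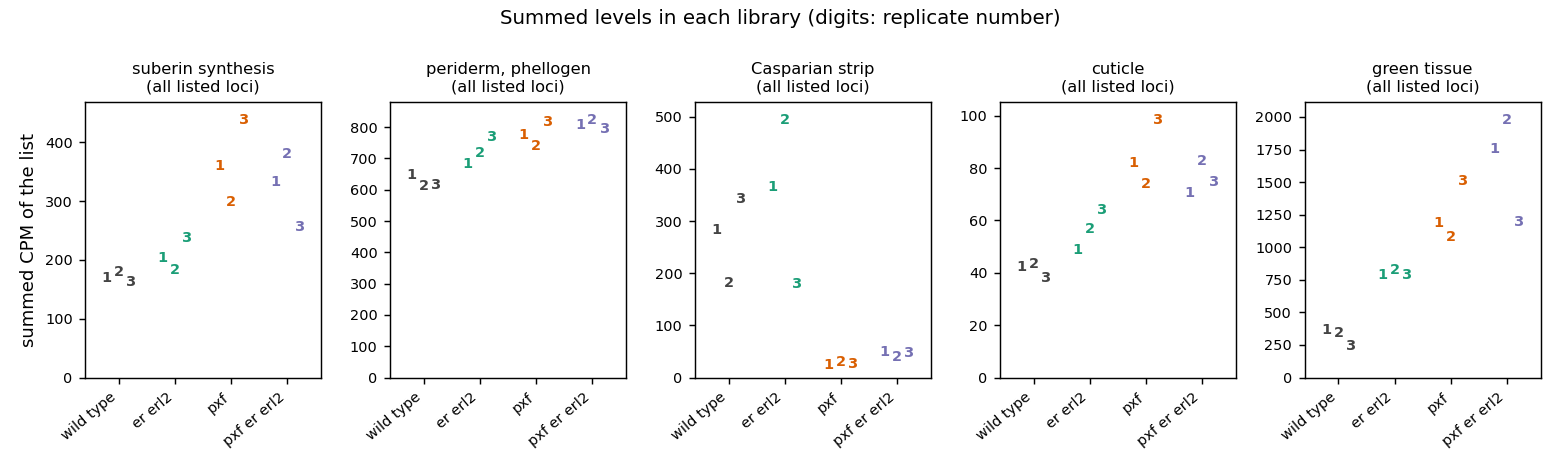
Summed TMM-scaled CPM (y axes, linear from 0) of 5 gene lists in each library, with digits for the replicate number and genotypes on the x axis. The suberin, periderm, cuticle and green-tissue sums are higher in the pxf lines than in wild type. The Casparian strip sum, nearly all PER64 in wild type, is lower in the pxf lines, at 23.9 to 49.6 CPM.

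Abscisic acid induces suberin genes in roots, and 10 of 11 listed genes of its response were tested. Against wild type, 3 were higher and 0 lower in er erl2, 1 higher and 1 lower in pxf, and 1 higher and 0 lower in the quintuple mutant. With 18.8%, 21.0% and 36.3% of all loci called, the counts in pxf and the quintuple mutant were at or below the background. PP2CA, a phosphatase of the pathway, was higher in each, by 0.56 (log2, SE 0.11, adjusted p = 0.0045, edgeR), 0.54 (SE 0.11, adjusted p = 0.00572) and 0.62 (SE 0.11, adjusted p = 0.00111). AFP1 (0.68, adjusted p = 0.0363) and RD29B (9.42, adjusted p = 0.0282) were also higher in er erl2. RD29B had 0 counts in wild type and 249 in er erl2, 214 of them in 1 library. ABI1 was the gene lower in pxf (-0.44, adjusted p = 0.0277). It was below wild type on average in er erl2 (-0.36, adjusted p = 0.066) and the quintuple mutant (-0.30, adjusted p = 0.0834), without a call. The part of abscisic acid in the suberin differences was not tested. Of 4 root-hair genes, EXPA7, RSL4 and COW1 had at most 5 counts in any library, and RHD2 was higher in all 3 mutants.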

How the data were processed

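Raw counts per gene were analysed as deposited, 1 column per library; per the labels' protocols, poly-A RNA was sequenced, and the submitters' processing notes name HISAT2 2.0.5, featureCounts 1.5.0-p3 and the build TAIR10 without their settings. Strand, annotation and the treatment of shared reads are not given in the sources used here. The authors' counts were not normalized. edgeR 4.0.16 in R 4.3.3 was used: filterByExpr kept 19236 of 32833 loci, TMM factors were 0.9855 to 1.011, and a robust quasi-likelihood model with a term per genotype was fitted to all 12 libraries (biological coefficient of variation 11.6%). SE were computed from the fold change and F. Loci were matched to RefSeq TAIR10.1, which held 32548 of them and gave names, exon lengths, overlaps and sequences. The fit was tested on simulated data. Counting intervals and limits cover counting error only.

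Samples were grouped by their titles. The labels call the replicates biological, and counts of replicates differed by a chi-square of 3.271 to 18.66 per degree of freedom, so no library was a repeat of another. The replicate numbers were checked for pairing by correlating deviations from the group means. Wild type and pxf er erl2 of the same number correlated at 0.107 to 0.27, past 0.1 in all 3 pairs, and other pairs of genotypes at -0.367 to 0.188; no label gives a reason for a pairing. The members and gene lists were chosen with earlier results of these data known and were written from general knowledge. Genes named were the 10 members, PXY and ER, at most 3 called loci per list and comparison by size of change, listed regulators of at least 1 CPM, and the 5 loci most like the mean member pattern. Genes named as being at or near 0, and NAC046, FAR6, FAR8, AT1G61590, UCC1, KNAT1, AT4G36430, PXL1, PXL2 and ERL2, serve to account for their lists. Alternatives tried were DESeq2 1.42.0, its size factors, no filter, the compared groups alone, the replicate block, each library left out, and levels without length or over unshared exon.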

Additional observations from a re-analysis of the deposited data

Results flagged for a closer look

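FAR1 was the suberin gene whose response to er erl2 differed between backgrounds by a test of the difference itself. Its interaction was 0.88 on the log2 scale (SE 0.20, adjusted p = 0.0163, edgeR's quasi-likelihood test). FAR1 stood lower by 0.23 on average in er erl2 than in wild type, with overlapping libraries, and higher by 0.65 in pxf er erl2 than in pxf, in 3 of 3 libraries. The call held in all 17 alternatives fitted, with values of 0.74 to 0.98 and adjusted p of 0.00228 to 0.041. Over all tested loci 9.45% were called in this comparison, so 1 of 9 suberin genes was near the background. Among the 40 tested loci nearest to FAR1, 9 were called for the interaction and 2 had terms of at least 8-fold. Around the other tested genes, 0 to 13 were called and 0 to 3 had such terms, which 0.832% of all tested loci had. The part of the loci around FAR1 in its value was not tested.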

How the results depend on the processing

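The value of each tested member in each comparison was recomputed with each library left out. Of the 648 values so obtained, 603 kept their direction and side of the threshold. Some of the 648 left out a library of neither group compared, which makes such agreement easier. The other alternatives gave 360 values, of which 345 did. For er erl2 against wild type, the count of 1 became 3 with DESeq2's Wald test, 3 with the compared groups alone and 0 with the replicate block (ASFT adjusted p = 0.0573), and 0 to 3 without single libraries. For pxf er erl2 against pxf, the count of 1 became 0 with the compared groups alone and the replicate block, an alternative chosen after seeing the data, since FAR1 then had an adjusted p of 0.0679, and stayed 1 without any single library. That fit also ended the calls of ABCG6 in pxf against wild type (0.096) and CYP86A1 in pxf er erl2 against er erl2 (0.0643). For pxf er erl2 against er erl2 the count of 4 was 4 to 7 without single libraries, highest without pxf er erl2 replicate 3. For the interaction, the count of 1 was 2 with DESeq2 and 1 to 3 without single libraries. The counts of 8 in pxf and 9 in pxf er erl2 against wild type were 7 to 8 and 6 to 9 over all alternatives. Beyond the pair that met the pairing rule, same-numbered samples share only a number; the replicate block left 9 of 9 called in pxf er erl2 against wild type, and in that pair 4 of 6 samples correlated best with their own number.

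Signs turned in the differences that follow, none of which had passed the test and not all of which were near 0. The difference of FAR4, er erl2 against wild type, was 0.01 and became -0.0060 without the filter, -0.0084 with the compared groups alone and -0.0086 with these and the block, and that of FAR4, pxf er erl2 against pxf, became 0.0032 with DESeq2's size factors and 0.0017 with its Wald test. Without single libraries, FAR4 was -0.072 to 0.057 in er erl2 against wild type, -0.15 to 0.16 in pxf er erl2 against pxf and -0.16 to 0.15 in the interaction. GPAT5 was -0.25 to 0.13, KCS2 -0.50 to 0.047 and ABCG6 -0.20 to 0.25 in pxf er erl2 against pxf, and ABCG6 was -0.030 to 0.40 in pxf er erl2 against er erl2. Over all loci, calls for pxf against wild type went from 4041 to 2497 to 4729, for pxf er erl2 against pxf from 2016 to 442 to 2280, and for the interaction from 1818 to 1119 to 2169. With 3 libraries a group, differences of the size seen between pxf and pxf er erl2 were not resolved for 8 of the genes; the cause of the changes above was not tested.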
